A study of Mus musculus with 6 samples.

Results

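The Cep genes encode centrosomal proteins, and 34 of them were measured in mouse embryo samples with and without Tmem216. The members were all genes of the deposited table whose symbol is Cep followed by digits, with an optional letter and further digits, leaving out Cep290. A member also had to reach 1 TPM (a transcript level scaled for gene length and library size) in at least 3 of the 6 samples. All 34 matching genes, of 56359 rows in the table, passed that level filter, and each was above 1 TPM in all 6 samples, so the filter removed none. The lowest single value was 2.83 TPM, for Cep85l in wild type replicate 3. Fopnl and Fgfr1op, which RefSeq lists as synonyms of Cep20 and Cep43, stand in the table under those older names and are no members.

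A centrosome holds a pair of centrioles inside a protein matrix that nucleates microtubules, and it is copied once per cell cycle. When a cell stops dividing, the older centriole docks to the membrane through its distal appendages and templates the axoneme of a primary cilium. Cep proteins work at each of these steps, from building the new centriole to anchoring it and opening the cilium. Tmem216 encodes a membrane protein of the transition zone, the gate at the base of the cilium.

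RNA sequencing was done on 3 Tmem216-/- and 3 wild type samples of C57BL/6 embryos at embryonic day 12. The labels give the source only as embryo and do not say which parts were taken, whether each sample was a separate embryo, or how the Tmem216 allele was made. Each p value is therefore measured against sample-to-sample spread only, and some of that spread may be technical. Because the values are TPM, the number of reads behind them is unknown. Tmem216 was 2.25, 0.51 and 1.39 TPM in Tmem216-/- and 31.0, 30.7 and 17.4 TPM in wild type (replicates 1, 2 and 3). Its log2 fold change was -3.55 (SE 0.34, limma adjusted p = 0.0266), and with any sample other than Tmem216-/- replicate 1 left out the adjusted p lay between 0.0551 and 0.196.

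No Cep gene passed the test between genotypes. Of 16411 genes tested by limma, 17 passed an adjusted p under 0.05 (0.104%, made up of 0.0975% higher and 0.00609% lower in Tmem216-/-), and 0 of the 34 Cep genes did, with a lowest adjusted p of 0.983. At an unadjusted p under 0.05 the count was again 0 of 34, beside 4.46% of all genes. Of the 34, 21 had a higher and 13 a lower mean log2 level in Tmem216-/-, and the log2 fold changes ran from -0.26 to 0.39. The median was 0.07, beside -0.0077 over all tested genes. The summed level of the 34 genes was 665, 607 and 629 TPM in Tmem216-/- and 599, 708 and 566 TPM in wild type. Both the highest and the lowest sum were thus in wild type samples, and the group means were 634 ± 29.6 TPM in Tmem216-/- and 624 ± 74.2 TPM in wild type (SD, n = 3 each).

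The intervals say how large a change the data leave room for. For 31 of the 34 genes (91.2%, against 84.9% of all tested genes) the 95% interval of the log2 fold change lay inside -1 to 1. That is a change of 2-fold in TPM + 1 in either direction, which allows a larger change in TPM for the lower members. The intervals of Cep162, Cep83 and Cep295 reached past 1, with upper bounds of 1.10, 1.04 and 1.02, and the widest interval was that of Cep112 (-0.69 to 0.99). The narrowest intervals included those of Cep78 (-0.14 to 0.29) and Cep68 (-0.17 to 0.28). For 20 genes the interval excluded a change of 1.5-fold in TPM + 1, as it did for 8996 of the 16411 genes tested.

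**Figure D1:**
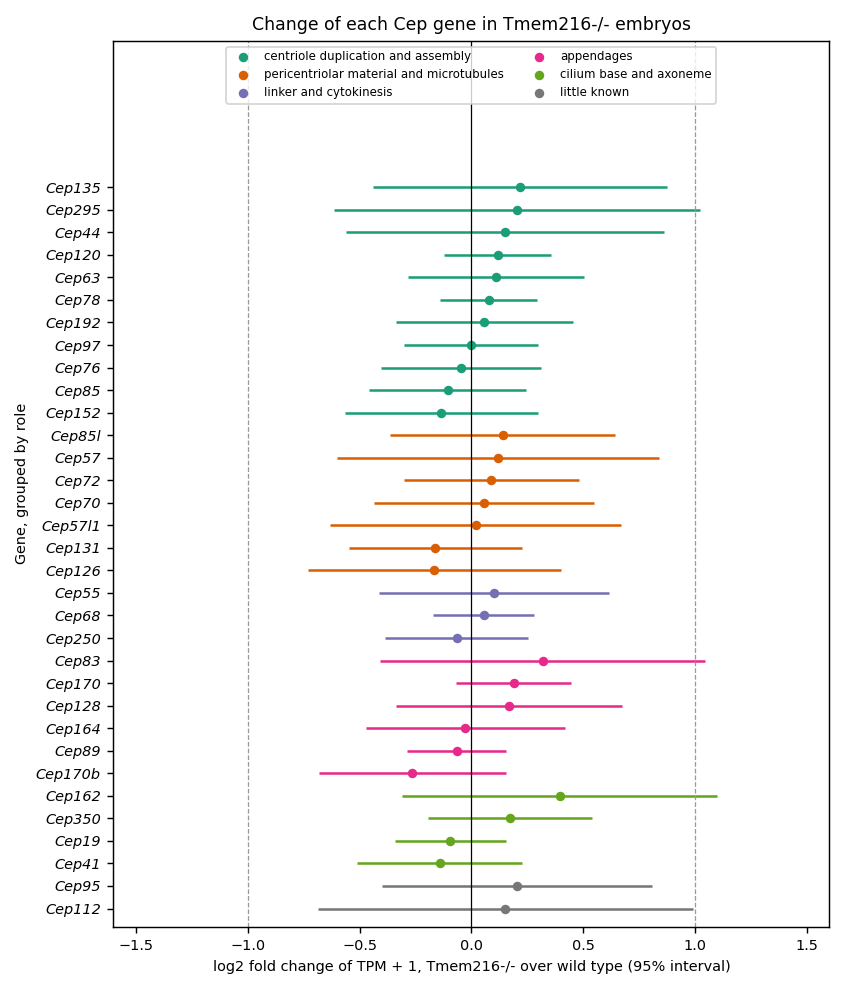
Log2 fold change of log2(TPM + 1) in Tmem216-/- over wild type for 33 Cep genes, grouped by role, with points for the limma estimate and bars for its 95% interval (n = 3 each). Every bar crosses 0, and 3 bars, those of Cep162, Cep83 and Cep295, reach past the dashed line at 1.

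The Cep genes spanned low to moderate levels. TPM is scaled for length, but levels also varied between samples with transcript GC content (given below), so the order of genes is approximate. The mean over the 6 samples ran from 4.11 TPM for Cep85l to 53.5 TPM for Cep170, with a median of 16.9 TPM beside 15 TPM over all tested genes. A mean of 10 TPM or more was reached by 25 of the 34 genes (73.5%, against 59.5% of all tested genes). Cep170, a subdistal appendage protein that binds microtubules, was 58.7, 52.9 and 59.4 TPM in Tmem216-/- and 47.2, 56.2 and 46.6 TPM in wild type. It stood above every other member except that Cep131 reached 56.3 TPM in wild type replicate 3. Cep131, a centriolar satellite protein, was 41.3, 36.3 and 40.6 TPM in Tmem216-/- and 40.3, 37.8 and 56.3 TPM in wild type. Cep89, a distal appendage protein, was 29.1, 27.8 and 31.4 TPM in Tmem216-/- and 31.1, 31.2 and 30.1 TPM in wild type, and its ranges overlapped with those of Cep57, Cep120, Cep78 and Cep44, the next genes in the order. At the low end, Cep162 was 7.33, 5 and 7.49 TPM in Tmem216-/- and 3.90, 7.66 and 3.41 TPM in wild type. Cep126, which organises microtubules at the centrosome, was 4.14, 4.13 and 5.12 TPM in Tmem216-/- and 4.09, 7.48 and 4.27 TPM in wild type. Cep85l was 4.13, 4.46 and 4.33 TPM in Tmem216-/- and 3.66, 5.25 and 2.83 TPM in wild type, so the 3 lowest members overlapped in their ranges. The older-named Fopnl was 51.6 ± 0.84 TPM in Tmem216-/- and 50.4 ± 2.41 TPM in wild type, and Fgfr1op was 19.3 ± 0.55 TPM in Tmem216-/- and 17.6 ± 2.02 TPM in wild type (both chosen after their values were seen).

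**Figure D2:**
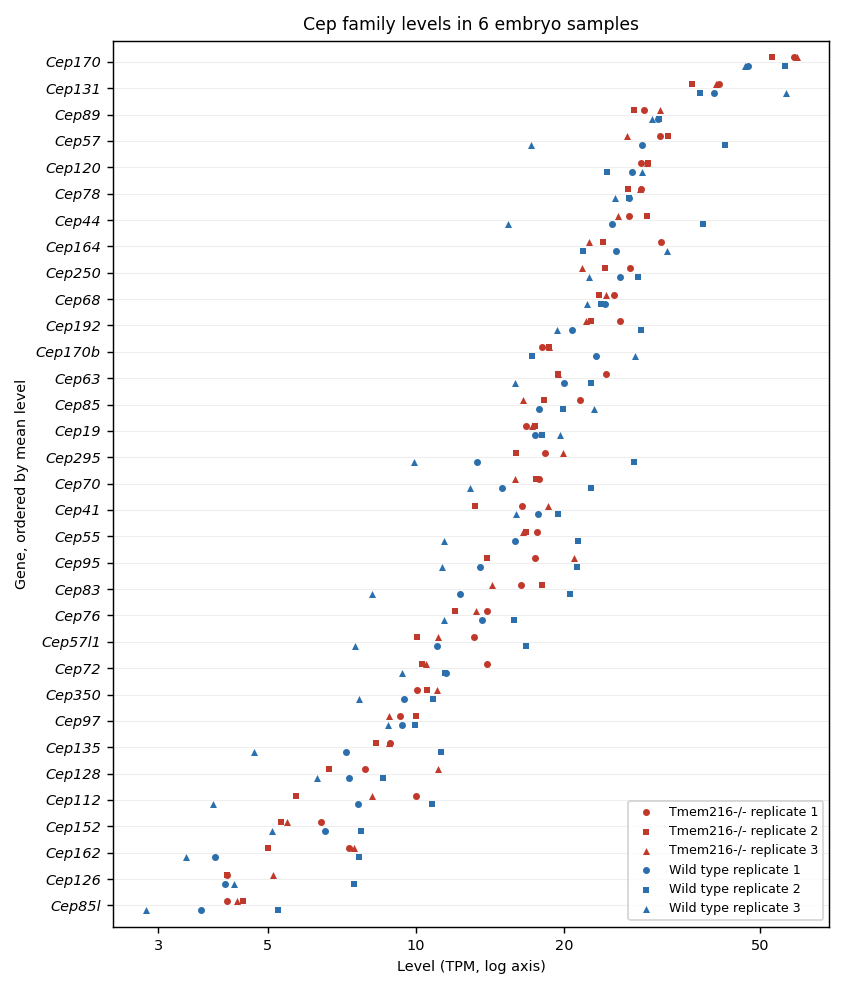
Level in TPM on a log axis of 33 Cep genes in each sample, with Tmem216-/- in red above wild type in blue and a marker shape for each replicate number. Genes run from Cep170 at the top (mean 53.5 TPM) to Cep85l at the bottom (4.11 TPM), and wild type replicates 2 and 3 are often the outermost points.

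Genes of centriole duplication and assembly made up the largest role group, with 11 members, of which 7 were higher and 4 lower in Tmem216-/- (median log2 fold change 0.08, lowest adjusted p 0.983). Cep120, which promotes centriole elongation, had the smallest p of the group and was 28.7, 29.7 and 29.4 TPM in Tmem216-/- and 27.5, 24.5 and 28.8 TPM in wild type. The lowest Tmem216-/- value lay just under the highest wild type value, and the log2 fold change was 0.12 (SE 0.10, adjusted p = 0.983). Cep152 and Cep63, partners that load the duplication kinase Plk4 onto the centriole, had log2 fold changes of -0.13 and 0.11. Cep192, a scaffold of the pericentriolar matrix that also recruits Plk4, was at 0.06, and Cep135, a protein of the cartwheel and centriole wall, at 0.22. Cep295, needed for the conversion of a new centriole into a centrosome, was at 0.20, and Cep44, a protein of the centriole lumen in that conversion, at 0.15. Cep97, which caps the distal end together with Cp110, was at -0.0014 (0.0064 with median-of-ratios scaling), and Cep78, which controls Cp110, was at 0.08. Cep76, which restrains reduplication, and Cep85, a partner of Stil, were at -0.05 and -0.11.

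The 7 members of the pericentriolar matrix, satellites and microtubule organisation split 5 higher and 2 lower, with a median of 0.06. Cep131, described above, had the smallest p of these, with a log2 fold change of -0.16 (SE 0.16, adjusted p = 0.983). Cep72, which helps to recruit matrix proteins, was at 0.09, and Cep70, which binds gamma-tubulin, at 0.06. In the group of the centrosome linker and cytokinesis, Cep250, which anchors the linker to the centriole, was at -0.07, and Cep55, which brings the abscission machinery to the midbody, at 0.10. Cep68, a filament protein of the linker, was 25.2, 23.6 and 24.3 TPM in Tmem216-/- and 24.2, 23.8 and 22.3 TPM in wild type. Its 6 values lay closer together than those of most members, with a highest to lowest ratio of 1.13 against a family median of 1.52.

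Appendage genes divided evenly, with 3 of 6 higher. The distal appendage genes Cep83, Cep89 and Cep164 had log2 fold changes of 0.32, -0.07 and -0.03. Cep83 anchors the other distal appendage proteins, and Cep164 recruits the kinase Ttbk2 that starts ciliogenesis. Among subdistal appendage genes Cep128 was at 0.17 and Cep170 at 0.19 (SE 0.11, adjusted p = 0.983), the smallest p of the family. In mm10 coordinates Cep170 spans 176733653 to 176814067 of chromosome 1 (minus strand). Cep170b, its paralog, was 18.1, 18.7 and 18.6 TPM in Tmem216-/- and 23.2, 17.3 and 27.8 TPM in wild type, a log2 fold change of -0.26 (SE 0.18, adjusted p = 0.983) and the lowest of the family. All 3 Tmem216-/- values of Cep170b lay between wild type replicates 2 and 1.

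At the cilium base and in the axoneme, 2 of 5 genes were higher. Cep162, which links the axoneme to the transition zone and whose values are given above, had the highest log2 fold change of the family (0.39, SE 0.30, adjusted p = 0.983), yet wild type replicate 2 exceeded every Tmem216-/- sample. Cep162 lies on chromosome 9 at 87189577 to 87255536. Cep350, which works with Fop at the mother centriole, was at 0.17, and Cep41, which supports glutamylation of axonemal tubulin, was at -0.14. Of the remaining members with little known function, Cep95 was 17.5, 13.95 and 20.9 TPM in Tmem216-/- and 13.5, 21.2 and 11.3 TPM in wild type (0.20), and Cep112 was at 0.15.

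Cep19, which recruits the GTPase Rabl2 and thereby intraflagellar transport particles to the cilium base, was the only member whose groups did not overlap. It was 16.8, 17.5 and 17.2 TPM in Tmem216-/- and 17.5, 18.0 and 19.6 TPM in wild type. The difference was small, since the highest Tmem216-/- value, 17.46 TPM, and the lowest wild type value, 17.48 TPM, were nearly equal, and the log2 fold change was -0.09 (SE 0.10, adjusted p = 0.983). Groups that do not overlap were found for 9.57% of all tested genes, 4.83% with Tmem216-/- lower and 4.75% with Tmem216-/- higher, so 1 of 34 is not above the background. The Cep19 promoter is shown because it held the family's single match to an X-box, the palindromic site of RFX factors, which regulate many cilium genes. It spans 250 bases before to 50 after the RefSeq start site, at chr16:32099539-32099838 on the plus strand (GRCm38.p6), and capitals mark the match, at 32099811 to 32099824.
Cep19: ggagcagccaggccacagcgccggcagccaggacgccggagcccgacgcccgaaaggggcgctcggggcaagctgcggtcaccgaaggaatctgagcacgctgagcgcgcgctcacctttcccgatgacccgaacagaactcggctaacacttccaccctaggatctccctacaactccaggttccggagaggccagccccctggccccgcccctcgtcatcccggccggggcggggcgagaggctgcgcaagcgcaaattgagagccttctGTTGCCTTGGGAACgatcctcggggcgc

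RefSeq promoters were matched for 29 of the 34 genes, 36 windows in all. Cep120, Cep192, Cep76 and Cep350 are among the members with no promoter shown. Motifs were searched on both strands, and matches to different motifs may overlap. The RFX X-box consensus was in 1 of the 36 windows (2.78%), against 0.451% of all 32851 promoter windows. The NRF1 consensus was in 7 windows (19.4%, against 4.6%), those of Cep162, Cep170, Cep19, Cep295, Cep41, Cep57l1 and Cep72. The CCAAT letters were in 15 windows (41.7%, against 37.4%), the ETS letters CCGGAAG in 6 (16.7%, against 8.86%), and TTTGAA, the cell cycle homology region of many mitotic genes, in 11 (30.6%, against 17.9%). The Cep windows had a median GC content of 62.2%, against 52.7% for all windows, and matches were not compared at equal GC content.

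The Cep genes varied more among wild type samples than among Tmem216-/- samples. In 18 of the 34 genes the highest of the 6 values was in wild type replicate 2, and in 23 the lowest was in wild type replicate 3 (22.8% and 26.7% of all tested genes). Both held at once for 15 genes (44.1%, against 13.5% of all tested genes). All 3 Tmem216-/- values lay within the wild type range in 19 genes (55.9%, against 41.1%). The SD of log2(TPM + 1) was larger in wild type than in Tmem216-/- for 28 of the 34 genes (82.4%, against 72.9% of all tested genes). The median SD was 0.12 in Tmem216-/- and 0.27 in wild type, beside 0.12 and 0.24 over all tested genes in Tmem216-/- and wild type. Wild type replicates 2 and 3 also had the lowest correlation of all sample pairs over the tested genes (r = 0.934).

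**Figure D3:**
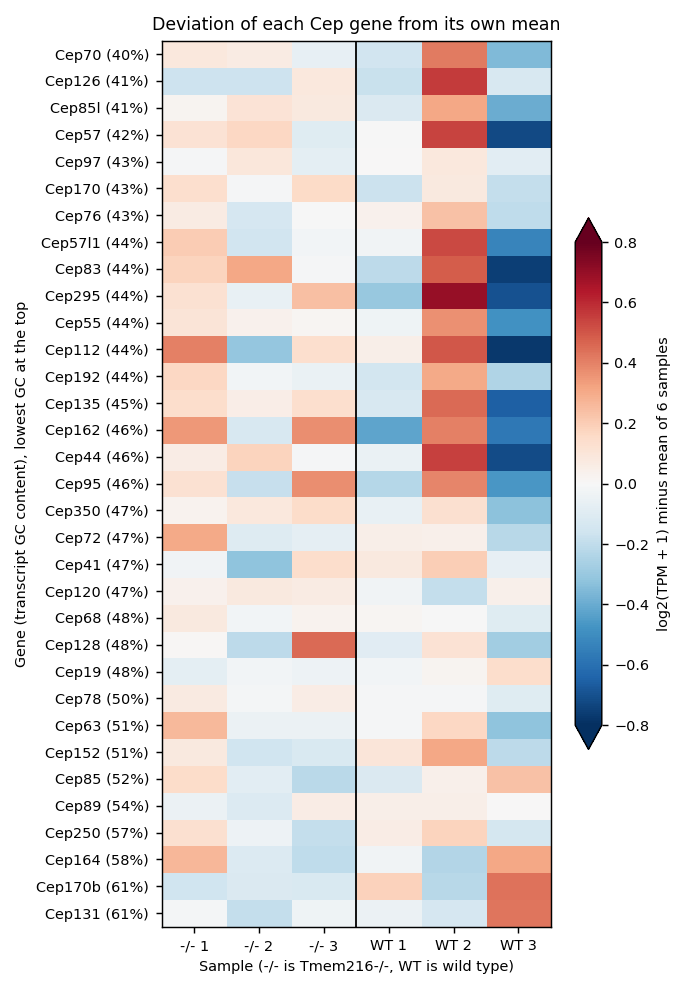
Log2(TPM + 1) of 33 Cep genes in each sample minus the mean of its 6 samples, with red for higher and blue for lower. Genes run from the lowest transcript GC content at the top to the highest at the bottom, and the opposite colours of wild type replicates 2 and 3 turn round near the bottom.

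The size and sign of the difference between these wild type samples varied with the base composition of the transcript. Cep295 was 18.3, 16.0 and 19.9 TPM in Tmem216-/- and 13.3, 27.7 and 9.91 TPM in wild type, so wild type replicates 2 and 3 stood 1.395 apart on the log2 scale. Cep112 was 9.99, 5.72 and 8.15 TPM in Tmem216-/- and 7.62, 10.8 and 3.87 TPM in wild type, a difference of 1.27 between the same replicates. Cep83, another of the AT-rich transcripts, was 16.4, 18.1 and 14.3 TPM in Tmem216-/- and 12.3, 20.5 and 8.13 TPM in wild type. The order was the opposite for Cep170b and Cep131, with replicate 2 minus replicate 3 at -0.66 and -0.56. The following coding stretches show the contrast. Each is the first in-frame window of 120 bases whose GC content is nearest to that of the whole coding sequence in GENCODE, with G and C in capitals. The genes are those with the 2 highest and the 2 lowest differences, and the transcripts are 44.0% GC for Cep295, 44.4% for Cep112, 60.7% for Cep170b and 61.4% for Cep131.
Cep295: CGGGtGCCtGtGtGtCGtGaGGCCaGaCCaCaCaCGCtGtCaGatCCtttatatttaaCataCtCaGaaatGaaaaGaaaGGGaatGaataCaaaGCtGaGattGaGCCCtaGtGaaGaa
Cep112: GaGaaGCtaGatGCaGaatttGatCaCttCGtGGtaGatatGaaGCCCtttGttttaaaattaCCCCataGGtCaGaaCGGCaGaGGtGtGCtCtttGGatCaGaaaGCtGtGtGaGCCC
Cep170b: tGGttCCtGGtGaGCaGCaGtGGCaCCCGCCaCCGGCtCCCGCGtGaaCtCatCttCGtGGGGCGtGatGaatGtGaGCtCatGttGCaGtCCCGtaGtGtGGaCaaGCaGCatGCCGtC
Cep131: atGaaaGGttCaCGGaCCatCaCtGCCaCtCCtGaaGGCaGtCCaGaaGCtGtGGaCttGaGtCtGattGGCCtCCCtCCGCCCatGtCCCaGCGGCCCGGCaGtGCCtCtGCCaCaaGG

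Over the 34 genes the correlation of transcript GC content with the difference between wild type replicates 2 and 3 was -0.72, and over the 15857 tested genes with a GENCODE transcript it was -0.46. These are correlations across genes within the same libraries, and the genes are not independent replicates. Transcript length showed a weaker relation over the Cep genes (r = -0.15 with log2 length). The Cep transcripts were AT-rich, with a median GC content of 46.4% against 50.2% for all tested genes and a range from 40.3% for Cep70 to 61.4% for Cep131. In the 17 genes with the lower GC content, a split made after the values were seen, replicate 2 exceeded replicate 3 in all 17, and the median difference was 0.86. In the other 17 it did so in 10, with a median of 0.09. Over all tested genes below the same GC content, replicate 2 exceeded replicate 3 in 3864 of 4700 (median 0.45). Above it the count was 3477 of 11157 (median -0.21). The relation was not complete, since Cep97 (42.6% GC) differed by only 0.17 and Cep250 (57.4% GC) by 0.32. Within bins of 2 percentage points of GC content, 23 of the 34 genes lay above the median of all tested genes and 17 above their upper quartile.

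**Figure D4:**
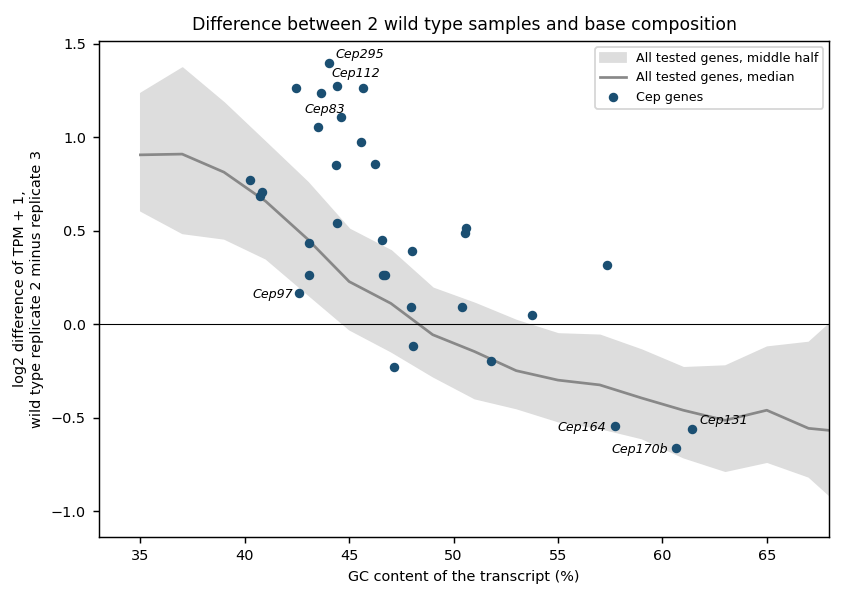
Difference in log2(TPM + 1) between wild type replicates 2 and 3 against transcript GC content in percent, for 33 Cep genes (points) and for all tested genes in bins of 2 percentage points (line for the median, band for the interquartile range). Cep295 and Cep112 lie near the top left, at 1.395 and 1.27, and Cep170b and Cep131 at the lower right, at -0.66 and -0.56.

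Marker genes of some cell types differed between these wild type samples as well. The summed level of 12 neuron genes was 1426 TPM in wild type replicate 2 and 2647 TPM in replicate 3, that of 19 proliferation genes was 1910 and 1563 TPM, and that of 10 liver genes 2671 and 225 TPM. Sums in the same order were 1736 and 2386 TPM for neural progenitors, 474 and 579 TPM for mesenchyme and 246 and 202 TPM for heart muscle. They lay closer for erythroid cells (27581 and 25682 TPM), skeletal muscle (148 and 136 TPM) and multiciliated cells (32.9 and 34.8 TPM). In bulk samples fewer cells of a type and less RNA per cell cannot be told apart, and the part of these markers and of base composition in the Cep levels was not tested.

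The genotype comparison varied with base composition as well. Over the 34 genes the log2 fold change of Tmem216-/- over wild type correlated with GC content at -0.52 (-0.20 over all tested genes). Of the 17 genes with lower GC content 14 were higher in Tmem216-/- (median 0.14), and of the other 17 genes 7 were (median -0.03). All tested genes split at the same GC content showed a like contrast, with 3529 of 4700 higher (median 0.11) below it and 4153 of 11157 higher (median -0.05) above it. Without wild type replicate 3 the correlation over the Cep genes was 0.19 and the family median -0.05, with 12 higher and 22 lower. That fit had 0 Cep genes at an unadjusted limma p under 0.05, beside 7.84% of all tested genes. Without wild type replicate 2 the correlation was -0.69 and the median 0.18, with 25 higher and 9 lower. In that last fit 6 Cep genes had an unadjusted p under 0.05, beside 11.6% of all tested genes: Cep162 (log2 fold change 0.69), Cep83 (0.64), Cep295 (0.60), Cep135 (0.50), Cep170 (0.27) and Cep170b (-0.44). None passed limma over all genes, the lowest adjusted p being 0.411. A correction of each sample for GC content, chosen after the data were seen, left the family median at 0.03 and 0 genes past the threshold. The correlation with GC content was then -0.05. The correction removes the trend of each sample with GC content, so a weak correlation follows from it. At an unadjusted limma p under 0.05 the count after this correction was 0 of 34, beside 5.25% of the 15857 genes it covered. The correction also brought the median SD of the Cep genes to 0.11 in Tmem216-/- and 0.16 in wild type. The SD was still larger in wild type for 27 of the 34 genes (79.4%, against 65.8% of the genes it covered). Over the Cep genes GC content still correlated at -0.24 with wild type replicate 2 minus 3 (0.04 over all genes it covered).

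Each of the 3 paralog pairs had 1 clearly more abundant member. Cep57, which organises the pericentriolar matrix and keeps centrioles engaged, was 31.3, 32.5 and 26.9 TPM in Tmem216-/- and 28.8, 42.5 and 17.1 TPM in wild type. Cep57l1 was 13.1, 10.1 and 11.1 TPM in Tmem216-/- and 11.0, 16.8 and 7.53 TPM in wild type. Both peaked in wild type replicate 2, and the ratio of Cep57 to Cep57l1 was 2.68 ± 0.47 in Tmem216-/- and 2.47 ± 0.18 in wild type (SD, n = 3 each). Cep85 was 21.5, 18.2 and 16.5 TPM in Tmem216-/- and 17.8, 19.9 and 23.0 TPM in wild type, and its ratio to Cep85l was 4.36 ± 0.74 in Tmem216-/- and 5.59 ± 2.26 in wild type. The ratio of Cep170 to Cep170b was 3.09 ± 0.22 in Tmem216-/- and 2.32 ± 0.83 in wild type, where it was 2.03, 3.26 and 1.67 by sample. Cep170 has 43.1% and Cep170b 60.7% GC, and the wild type samples spanned the Tmem216-/- ratios.

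Cep85l, whose product acts at the centrosome of migrating neurons, carries the heart gene Pln within its bounds. Cep85l spans 53273443 to 53379947 of chromosome 10 (minus strand), and Pln, the regulator of the cardiac calcium pump, spans 53337667 to 53345987 on the plus strand. Their annotated exons share 141 bases. Pln was 8.66, 23.9 and 14.8 TPM in Tmem216-/- and 0.65, 0.82 and 0.38 TPM in wild type (log2 fold change 3.28, SE 0.35, adjusted p = 0.0395). Leaving out any sample other than Tmem216-/- replicate 1 put its adjusted p between 0.0631 and 0.209. It was 0.148 with a pseudocount of 5, 0.145 with no filter, 0.0505 with the GC correction and 0.107 with that correction and the replicate block. Pln reached the level filter through the Tmem216-/- samples alone, so its difference is a description. Cep85l was at 0.14 (adjusted p = 0.983), with a 95% interval from -0.36 to 0.64. Within each group the level of Cep85l had the same order as that of Pln. In Tmem216-/- Cep85l was 4.13 TPM where Pln was lowest and 4.46 TPM where Pln was highest. In wild type, where Pln was under 1 TPM, Cep85l was 2.83 TPM where Pln was lowest and 5.25 TPM where Pln was highest. Of the 34 members, 15 including Cep85l were highest in wild type replicate 2 and lowest in replicate 3, so that order was not particular. A part of shared reads in the Cep85l levels was not tested. For 15 of the 34 members GENCODE places another gene on the opposite strand. Whether the counting used strand is not given in the sources used here, so reads in such overlaps may be shared.

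The partner genes of the centrosome are given for comparison. Of 60 partner genes in 6 lists written from general knowledge, 59 were tested and 0 passed, with 30 higher, 29 lower, a median log2 fold change of 0.0082 and 1 at an unadjusted p under 0.05. Over all tested genes the shares were 0.104% and 4.46%, so 0 calls among 59 genes is near the background. The gene with the unadjusted p under 0.05 was Crocc, the rootlet and linker protein rootletin, at 28.7 ± 1.57 TPM in Tmem216-/- and 34.7 ± 3.07 TPM in wild type (-0.26, adjusted p = 0.983). Among centriole assembly partners 8 of 16 were higher, and Cntrob was at -0.21, Poc1a at -0.19, Poc5 at -0.17 and Cetn2 at 0.33. Of the pericentriolar and gamma-tubulin genes 6 of 14 were higher, with the mitotic kinase Aurka at -0.20, Tubgcp6 at -0.17, Mzt1 at 0.21 and the scaffold gene Akap9 at 0.38. Of 9 tested appendage partners 5 were higher, of 6 linker and cap genes 2, and of 8 satellite genes 5. The satellite genes had a median of 0.14, with Pibf1 at 0.41, Hook3 at 0.28, Ccdc14 at 0.19 and Ssx2ip at -0.24. In the list for the response to centrosome loss 4 of 6 were higher, with Usp28 at 0.29, Trim37 at 0.16, Trp53 at -0.18 and its target Cdkn1a at -0.09. Over the partner genes the correlation with GC content was -0.78 for wild type replicate 2 minus 3 (-0.46 over all tested genes) and -0.68 for the log2 fold change (-0.20 over all tested genes).

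Of the cell type lists, heart muscle genes were higher in Tmem216-/-, with 14 of 16 passing limma and a median log2 fold change of 3.88. The 14 include genes, named below, that reached the level filter only because of the Tmem216-/- samples. The summed level of the 16 genes was 1312 to 3006 TPM in Tmem216-/- and 145 to 246 TPM in wild type, and the groups did not overlap. How often sums of other lists would not overlap is not known. The labels do not say which parts of the embryo were taken, so heart tissue content and genotype cannot be told apart here. Of the 16 genes, 4 (Hspb7, Mybpc3, Nppb and Pln) were under 1 TPM in every wild type sample. These 4 reached the level filter through Tmem216-/- alone. Ankrd1, Ryr2, Myl3 and Nppa reached 1 TPM in fewer than 3 wild type samples, so they too passed only with the Tmem216-/- samples. The differences of all these genes are a description, though the list of 16 and its median include them. Mybpc3, Nppb and Pln are also among the 14 calls. With no filter 0 genes of the list were called. The 14 calls fell to 0 without wild type replicate 1 or 3, 2 without wild type replicate 2, 1 without Tmem216-/- replicate 3 and 7 without Tmem216-/- replicate 2. No heart gene of the list was at 0 in wild type, where Myl7 was 1.91 to 4.91 TPM and Mybpc3 0.09 to 0.36 TPM. In the lists for liver, erythroid cells, neurons, neural progenitors, skeletal muscle, mesenchyme, multiciliated cells and proliferation 0 genes passed, which at a share of 0.104% over all genes is no result about lists of this size. The liver genes were lower in 10 of 10, but their sums differed widely within each genotype and the groups overlapped. By replicate the sums were 1121, 130 and 162 TPM in Tmem216-/- and 2303, 2671 and 225 TPM in wild type. The 10 genes share these samples and are not independent. The proliferation genes, which bear on centrosome number, had sums of 1713 to 1738 TPM in Tmem216-/- and 1563 to 1910 TPM in wild type, with a median log2 fold change of -0.0093. Multiciliated cells build many centrioles with several Cep proteins and Deup1, the paralog of Cep63. Their 9 marker genes summed to 25.6 to 26.9 TPM in Tmem216-/- and 32.9 to 35.0 TPM in wild type, so the sums did not overlap. Foxj1, Rfx2, Rfx3 and Myb made up most of each sum, while Mcidas, Gmnc and Ccdc78 were at 0.06 to 1.16 TPM. The sums thus say little about the other genes of the list. Single genes did not overlap in 9.57% of all tested genes, and no such share is known for sums. Of the 9, 5 passed the level filter, with 4 lower and 1, Rfx3, higher (log2 fold change 0.25). Foxj1 overlapped, at 4.67 to 5.61 TPM in Tmem216-/- and 3.89 to 10.8 TPM in wild type. The mean of Deup1 was 0.76 TPM in both groups. Ccno, a regulator of centriole amplification, was 0.64, 0.71 and 0.90 TPM in Tmem216-/- and 2.14, 2.17 and 2.80 TPM in wild type (log2 fold change -0.94, adjusted p = 0.278). Ccno reached the level filter through the wild type samples alone, so its difference is a description. The part of any of these cell types in the Cep levels was not tested.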

How the data were processed

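Total RNA of 6 samples was sequenced from TruSeq libraries, per the labels' protocols, and reads were processed with CASAVA 1.8, HISAT2, StringTie and RSEM on mm10, per the submitters' processing notes. The authors deposited TPM values per gene, with gene lengths. Read depth cannot be had from TPM, so no counting interval is given. The table has 2 further numeric columns that were not used.

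Genes at 1 TPM or more in 3 or more samples were tested on log2(TPM + 1) with limma 3.58.1 in R 4.3.3 (lmFit, eBayes with a trend, two-sided, Benjamini-Hochberg over all 16411 genes, threshold 0.05). Fold changes are on that scale, which understates changes of low genes. SE and intervals are moderated. Members, role groups, lists and tests were chosen with earlier results of these data known. Per-sample values are given for Tmem216, members whose groups do not overlap, the 3 highest and 3 lowest levels, the paralog pairs and the smallest p of each role group, and other members were chosen after their values were seen. Up to 4 genes of each partner list are named. Transcript GC content and coordinates came from GENCODE (release M21, GRCm38), using the longest protein-coding transcript, whose length equals the deposited length for 27 of 34 members. Promoters came from RefSeq (GRCm38.p6). The fit was checked on simulated data. The alternatives changed the pseudocount (0.1, 5), the level filter (none, 5 TPM) and the scaling (median-of-ratios, quantile), or used eBayes without trend or robust, the replicate block, each sample left out and, chosen after the data were seen, a lowess correction for GC content (span 0.3). Figures used Python 3.11.15 and matplotlib 3.10.9.

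Counts and medians cover 34 members, of which 33 are reported singly, and the remaining gene is not reported here. The summed Cep level is described with no test, since its members were chosen with results known.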

Additional observations from a re-analysis of the deposited data

How the results depend on the processing

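The number of Cep genes past the threshold (limma) was 0 under all 17 alternatives, with a lowest adjusted p of 0.411, and at an unadjusted p under 0.05 it was 6 without wild type replicate 2. The family median ran from -0.05 to 0.18 when single samples were left out, and the difference in summed level from -19.6 to 51.3 TPM (9.49 TPM with all samples). The 17 calls over all genes became 0 with no filter and 0 to 27 with a sample left out (27, 9 and 7 without Tmem216-/- replicate 1, 2 and 3, and 0, 2 and 1 without wild type replicate 1, 2 and 3). The 14 calls in the lists, all heart genes, became 9 with a pseudocount of 5, 0 with no filter and 0 to 13 with a sample left out. Tmem216 had an adjusted p of 0.0667 with a pseudocount of 0.1 and 0.0874 with no filter.

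Median-of-ratios scaling put Cep97 at 0.0064. The GC correction, with or without the replicate block, turned the sign of Cep57l1 (-0.085), Cep192 (-0.026), Cep57 (-0.0026), Cep250 (0.017), Cep85l (-0.0046), Cep164 (0.056) and Cep70 (-0.095). With single samples left out, 14 Cep genes kept their sign and 20 did not, and the ranges of the 19 reported singly were Cep112 -0.20 to 0.44, Cep126 -0.30 to 0.072, Cep128 -0.017 to 0.31, Cep131 -0.27 to 0.012, Cep135 -0.055 to 0.50, Cep164 -0.17 to 0.12, Cep192 -0.049 to 0.22, Cep250 -0.15 to 0.012, Cep295 -0.10 to 0.60, Cep44 -0.17 to 0.46, Cep55 -0.11 to 0.31, Cep57 -0.21 to 0.42, Cep57l1 -0.24 to 0.29, Cep63 -0.024 to 0.22, Cep70 -0.11 to 0.28, Cep72 -0.043 to 0.16, Cep76 -0.16 to 0.058, Cep85l -0.025 to 0.33, Cep97 -0.046 to 0.0404. The cause of these sign changes was not tested. A filter at 5 TPM left 32 Cep genes.

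Same-numbered samples did not deviate together (r = 0.016, -0.093 and 0.101 over genes), and the replicate block gave 25 calls over all genes and 0 among Cep genes. Read depth is unknown from TPM, so it was not weighed for the lower members.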
